A study of Mus musculus with 39 samples.

Results

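The genes described here are 10 members of the fibroblast growth factor (FGF) pathway, namely the receptors Fgfr1, Fgfr2 and Fgfr3, the feedback inhibitors Spry1, Spry2, Spry4 and Spred1, and the Etv factors Etv1, Etv4 and Etv5. Their sites were the consensus Notch and RBPJ sites of the embryonic mouse cortex whose nearest protein-coding start site belonged to 1 of these genes. This rule found 42 of 20809 nuclear consensus sites, 21 at the receptors, 8 at the feedback inhibitors and 13 at the Etv factors. All 10 genes had at least 1 site, against 39.8% of the 21911 annotated protein-coding genes. The genes were chosen with earlier results of these data known, so this count is a description.

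Binding was mapped by Targeted DamID, in which the bacterial methylase Dam is joined to RBPJ or Notch and marks GATC sequences near the places that the fusion visits. Plasmids were electroporated into the cortex of wild-type embryos at E13.5 and the tissue was dissected at E14.5, 24 h later. A Hes5 promoter fragment drove the fusion in radial glial cells (RGCs), the neural stem cells of the cortex, and a Tα1 promoter fragment drove it in intermediate progenitor cells (IPCs), which arise from RGCs. The identity of the cells thus rests on these promoters, and every fusion was expressed from a plasmid. RGC RBPJ (3 samples) and IPC RBPJ (3 samples) carried human RBPJ1, the DNA-binding partner of Notch. RGC Notch comprised 2 samples of mouse NICD, the intracellular domain of Notch, and 2 of mouse NdECD, Notch without its extracellular domain. IPC Notch comprised 4 samples of mouse NICD, so that cell type and Notch construct cannot be fully told apart. Dam alone was profiled in 5 RGC and 4 IPC samples, and these controls are shared by both fusions of the cell type, although the label of 1 RGC sample does not name the RBPJ and Notch profiles.

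Each of the 4 conditions was deposited as 1 pooled list of peaks without heights, and peaks that overlapped between lists were joined into consensus sites, each with a cluster number from 1 to 8. A site was counted as called in a list when it held a peak of that list. No value of a single sample can be read from such lists, so the depth of the samples and the spread between replicates are unknown here and no p-value is given. Shares of sites carry Wilson 95% intervals, which cover counting error only and treat sites of the same gene as if they were independent.

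FGF ligands bind receptor tyrosine kinases on the cell surface, which signal through Ras and the MAP kinase cascade. Cells respond by inducing the ETS transcription factors of the Etv group, which carry the signal to further genes, and Sprouty and Spred proteins, which dampen the Ras cascade and so close a feedback loop. In the embryonic cortex, FGF receptors are known for keeping RGCs in the progenitor state and for patterning the cortex from its rostral end.

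Stretches of the 3 sites called in 3 lists, at Fgfr2, Fgfr3 and Etv1, and of sites on start sites of Spred1, Fgfr1 and Etv4 are shown first by their sequence. Capitals mark TTCCCA, the core of the RBPJ recognition sequence, on either strand (TGGGAA when read on the other). Each stretch is the 150 bases of its site with the most of these words and is given on the plus strand of GRCm38 (mm10). The Fgfr2 stretch lies in an intron, at chr7:130209839-130209988, and the Fgfr3 stretch upstream of the gene, at chr5:33701879-33702028. The Etv1 stretch lies in an exon, at chr12:38781313-38781462, and the Spred1 stretch upstream of the gene, at chr2:117119329-117119478. The Fgfr1 stretch lies in an intron near an internal start site, at chr8:25517992-25518141, and the Etv4 stretch immediately upstream of the gene, at chr11:101785365-101785514.
Fgfr2 intron, within the RGC RBPJ and RGC Notch peaks: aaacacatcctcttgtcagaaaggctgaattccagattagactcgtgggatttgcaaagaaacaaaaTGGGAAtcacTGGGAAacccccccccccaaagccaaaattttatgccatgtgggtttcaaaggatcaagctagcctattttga
Fgfr3 upstream, within the RGC RBPJ and RGC Notch peaks: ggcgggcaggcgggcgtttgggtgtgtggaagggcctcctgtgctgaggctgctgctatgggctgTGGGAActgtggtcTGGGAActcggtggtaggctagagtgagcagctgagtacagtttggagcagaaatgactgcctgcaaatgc
Etv1 exon, within the RGC RBPJ and RGC Notch peaks: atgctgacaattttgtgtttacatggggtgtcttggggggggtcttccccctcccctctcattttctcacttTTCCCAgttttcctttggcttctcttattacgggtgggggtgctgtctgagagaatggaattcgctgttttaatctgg
Spred1 upstream part of its start-site site, called in 2 lists: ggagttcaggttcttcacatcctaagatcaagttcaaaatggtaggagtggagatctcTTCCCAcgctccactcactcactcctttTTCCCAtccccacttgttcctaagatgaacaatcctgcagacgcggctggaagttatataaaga
Fgfr1 internal start site, called in 1 list: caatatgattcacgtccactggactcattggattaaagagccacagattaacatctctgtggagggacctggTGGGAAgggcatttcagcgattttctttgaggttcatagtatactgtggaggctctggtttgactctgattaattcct
Etv4 start site, called in 1 list: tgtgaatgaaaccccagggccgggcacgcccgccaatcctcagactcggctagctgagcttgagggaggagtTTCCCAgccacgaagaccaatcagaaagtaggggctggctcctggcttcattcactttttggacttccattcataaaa

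The 2 words of the Fgfr2 stretch and the 2 of the Fgfr3 stretch each lie close together and face the same way. The stretches of Fgfr2, Fgfr3 and Etv1 each lie inside peaks of both RGC lists, and none of them lies wholly inside an IPC peak. The Spred1 stretch holds a TTCCCAC and a TTCCCAT word. The stretches of Etv1, Fgfr1 and Etv4 hold 1 word each. Pairs of words on opposite strands within 30 bases of each other, as at the paired sites where Notch complexes are known to dimerise, were in 0 of the 42 sites and in 3.39% of all consensus sites.

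Promoter sequences of RefSeq (GRCm38.p6, 250 bases before to 50 after a start, on the strand of the gene) were matched for 7 of the 10 genes. Promoters of 4 of these lay in a consensus site, a share not given here for all genes. Of these 4 genes, 1 promoter each is shown, with TTCCCA or TGGGAA in capitals. They were the Fgfr2 promoter (chr7:130266759-130267058, minus strand), the Spred1 promoter (chr2:117120821-117121120, plus strand), the Etv1 promoter (chr12:38779832-38780131, plus strand) and 1 of 2 Etv5 promoters (chr16:22438319-22438618, minus strand).
Fgfr2 promoter: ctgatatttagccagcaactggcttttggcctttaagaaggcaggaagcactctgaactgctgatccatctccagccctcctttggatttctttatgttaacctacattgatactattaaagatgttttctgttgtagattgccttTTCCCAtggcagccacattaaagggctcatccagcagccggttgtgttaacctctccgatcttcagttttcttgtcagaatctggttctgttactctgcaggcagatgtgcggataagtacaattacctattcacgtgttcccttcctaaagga
Spred1 promoter: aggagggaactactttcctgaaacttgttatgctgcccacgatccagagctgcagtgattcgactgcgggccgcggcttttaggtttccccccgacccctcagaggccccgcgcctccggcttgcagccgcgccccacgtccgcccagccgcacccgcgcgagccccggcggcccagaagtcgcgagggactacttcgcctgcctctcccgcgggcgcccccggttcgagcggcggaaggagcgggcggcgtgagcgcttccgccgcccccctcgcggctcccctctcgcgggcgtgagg
Etv1 promoter: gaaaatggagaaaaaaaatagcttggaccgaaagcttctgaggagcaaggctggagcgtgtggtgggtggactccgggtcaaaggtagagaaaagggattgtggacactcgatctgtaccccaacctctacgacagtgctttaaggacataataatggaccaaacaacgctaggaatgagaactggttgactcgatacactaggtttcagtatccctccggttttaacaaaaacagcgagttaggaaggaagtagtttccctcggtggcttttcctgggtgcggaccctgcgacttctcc
Etv5 promoter: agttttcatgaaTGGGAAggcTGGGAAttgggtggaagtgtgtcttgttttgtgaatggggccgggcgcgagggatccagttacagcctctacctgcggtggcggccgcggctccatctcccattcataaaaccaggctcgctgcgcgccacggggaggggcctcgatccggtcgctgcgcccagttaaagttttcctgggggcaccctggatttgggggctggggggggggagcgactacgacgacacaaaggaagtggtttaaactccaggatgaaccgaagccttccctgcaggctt

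The Etv5 promoter shown held 2 of the words and the Fgfr2 promoter 1, whereas the Spred1 and Etv1 promoters held 0. The other Etv5 promoter, which lay in the same site, also held 0. Of all 32851 RefSeq promoters, 25.6% held the word on either strand. The promoters of Fgfr3 and Spry1 and that of Spry2 held 0 and lay in no consensus site. The letters CCGGAA, the core that ETS factors recognise, occurred once in the Spry2 promoter and in none of the other promoters of these genes, against 14.9% of all promoters.

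RGC RBPJ peaks were the most frequent at these genes. Of the 42 sites, 27 were called in the RGC RBPJ list (64.3%, interval 49.2 to 77.0), against 67.6% of all consensus sites. RGC Notch was called at 15 sites (35.7%, 23.0 to 50.8), against 17.7%. IPC RBPJ was called at 7 sites (16.7%, 8.32 to 30.6), against 26.2%, and IPC Notch at 4 sites (9.52%, 3.77 to 22.1), against 10.1%. The counting interval of RGC Notch thus lay above the share of all sites, and the other intervals included theirs. With 13 of the 42 sites at Fgfr2, the intervals do not measure the spread between genes, and no difference was tested. The sites were also wider, with a median of 2446 bp against 1890 bp. Among all consensus sites of at least that width 29.0% were called for RGC Notch, and among narrower sites 11.7%, whereas at the 10 genes these shares were 42.9% of 21 sites and 28.6% of 21 sites.

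**Figure D1:**
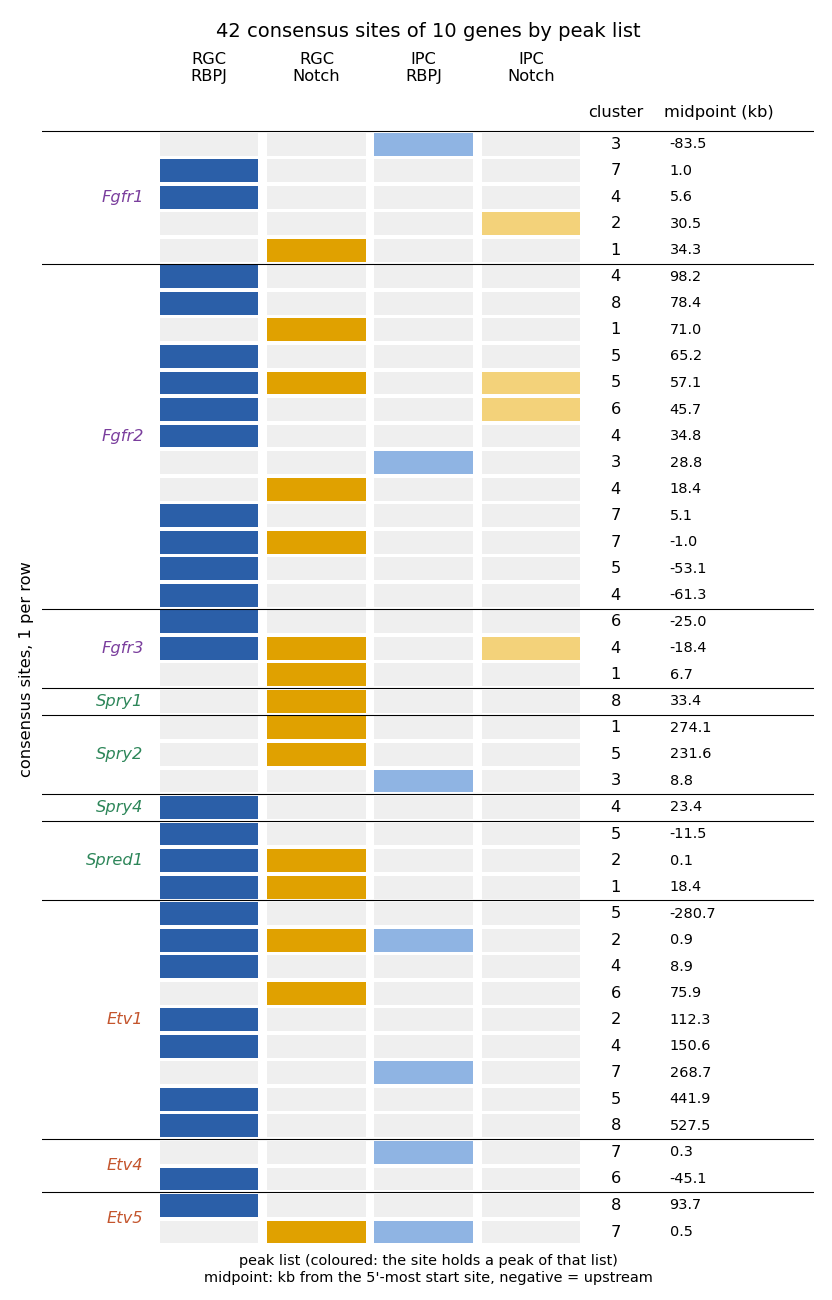
Each row is 1 of the 42 consensus sites, ordered by gene, and a coloured cell marks a peak of the list named above it, with the cluster and the distance of the site midpoint from the 5'-most start site in kb at the right. RGC RBPJ fills 27 rows and RGC Notch 15, and the 4 IPC Notch cells all lie at the receptors. IPC Notch was called at 10.1% of all consensus sites.

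By gene, RGC RBPJ sites were found at 8 of the 10 genes, all but Spry1 and Spry2, and RGC Notch sites at 8, all but Spry4 and Etv4. IPC RBPJ sites were found at 6 genes and IPC Notch sites at 3, which were the 3 receptors. Among the 8716 protein-coding genes with a consensus site, RBPJ was called at 79.8% in RGCs and 41.4% in IPCs, and Notch at 29.6% in RGCs and 17.6% in IPCs. For the 10 genes these shares were 80% and 60% for RBPJ and 80% and 30% for Notch. These genes had a median of 186 kb of nearest sequence, against 45.1 kb over all protein-coding genes, with or without a site. Genes with a site had a median of 1 site, and the 10 genes had between 1 (Spry1 and Spry4) and 13 (Fgfr2) each. More sites give a gene more chances of a call in any list, so these shares are not like for like. Most sites were called in a single list, 34 of 42 (81.0%), against 82.9% of all consensus sites. A further 5 sites were called in 2 lists (11.9%, against 13.2% of all consensus sites). In 3 lists there were 3 (7.14%, against 3.20%), 1 each at Fgfr2, Fgfr3 and Etv1. None was called in all 4, as were only 0.678% of all consensus sites.

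Receptor sites were called in all 4 lists, whereas no site of a feedback inhibitor or Etv factor was called for IPC Notch. That list called only 10.1% of all consensus sites, and 2 of its 4 receptor sites were at Fgfr2. Over all consensus sites, RBPJ was called at 67.6% in RGCs and 26.2% in IPCs, and Notch at 17.7% in RGCs. Of the 21 receptor sites, RBPJ was called at 14 in RGCs (66.7%) and at 2 in IPCs (9.52%), and Notch at 7 in RGCs (33.3%) and at 4 in IPCs (19.0%). Of the 8 sites of the feedback inhibitors, RBPJ was called at 4 in RGCs (50%) and at 1 in IPCs (12.5%), and Notch at 5 in RGCs (62.5%, 30.6 to 86.3) and at 0 in IPCs, with an upper bound of 32.4%. Of the 13 Etv sites, RBPJ was called at 9 in RGCs (69.2%) and at 4 in IPCs (30.8%), and Notch at 3 in RGCs (23.1%) and at 0 in IPCs, with an upper bound of 22.8%. The intervals of the 3 roles overlapped in every list, and the differences between roles were not tested, since sites of the same gene are not replicates.

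**Figure D2:**
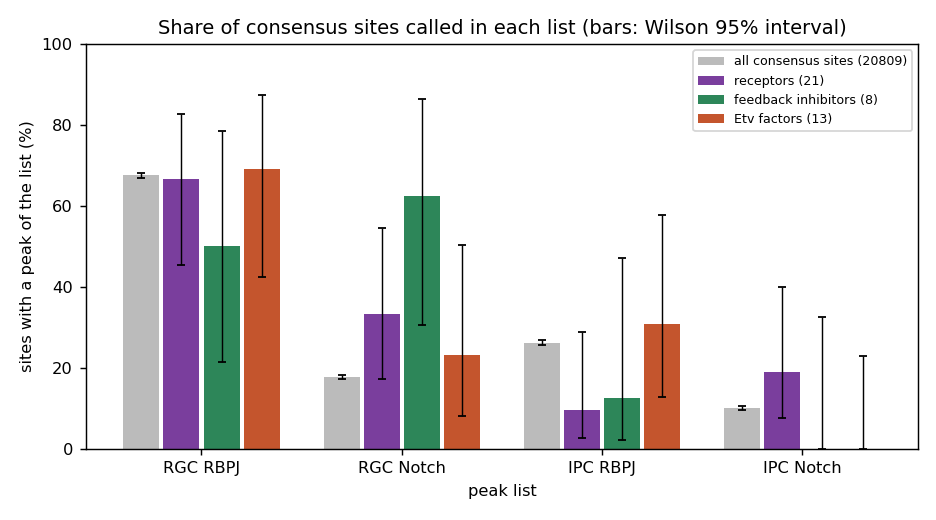
Bars give the percentage of consensus sites that hold a peak of each list, for all consensus sites and for the sites of receptors, feedback inhibitors and Etv factors, and whiskers give Wilson 95% intervals. The whiskers of the 3 roles overlap in every list, and the bars of IPC Notch are at 0 for feedback inhibitors and Etv factors.

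Fgfr2 (ENSMUSG00000030849), a receptor on the minus strand of chromosome 7, had 13 sites, the largest number among the 10 genes. Of all protein-coding genes, 151 (0.689%) had as many or more, Fgfr2 included. Of these 13, RBPJ was called at 10 in RGCs and at 1 in IPCs, and Notch at 4 in RGCs and at 2 in IPCs. The sites lay all along the 104 kb body of the gene, from 130162451 to 130266263, and in a pair of sites upstream. The site over its 5' end, from 130265144 to 130269373, was called in both RGC lists, whose peaks shared 3971 bp. The next site inside the gene, from 130259167 to 130263196, lay over the start of 13 coding transcripts and was called for RGC RBPJ only.

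The widest site of all 10 genes lay in the body of Fgfr2, from 130204131 to 130214260, a span of 10130 bp. It joined an RGC RBPJ peak of 8127 bp, an RGC Notch peak of 8061 bp and 2 IPC Notch peaks of 2754 and 875 bp. The RGC peaks shared 6058 bp, and the part covered in all 3 lists was 2894 bp, with 2 TTCCCA words. A neighbouring site, from 130219338 to 130221736, held an IPC Notch peak of 1647 bp that lay wholly within an RGC RBPJ peak. The single IPC RBPJ peak of the gene, from 130236150 to 130238858, overlapped no peak of another list. Near the 3' end of the gene an RGC RBPJ site spanned 4418 bp, from 130165833 to 130170250. Notch was called alone in RGCs at 2 intronic sites, from 130194189 to 130196380 and from 130247361 to 130248309. The 2 upstream sites lay 50.9 and 60.3 kb from the nearest start site and were called for RGC RBPJ only. The annotation also has 1 Fgfr2 transcript that begins 2857 kb upstream of the others, and it was left out of the gene body used here but kept among the start sites.

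**Figure D3:**
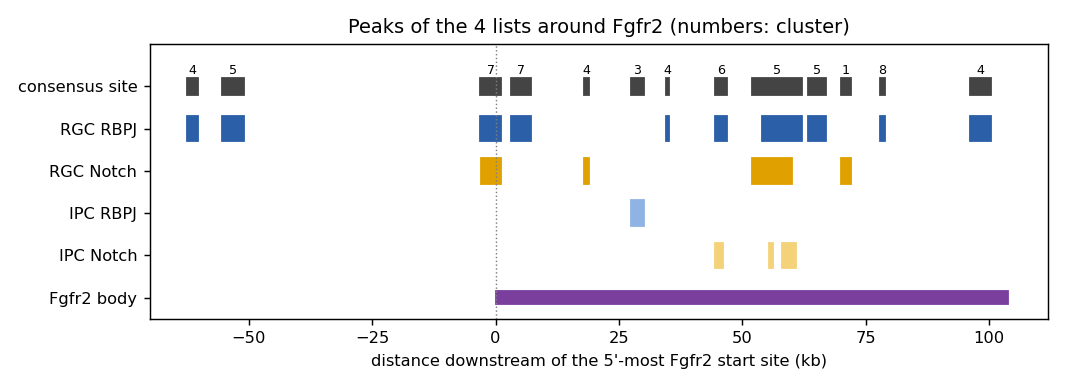
Peaks of the 4 lists and the consensus sites with their cluster numbers are drawn to scale by their distance in kb downstream of the 5'-most Fgfr2 start site. RGC RBPJ peaks run along the whole gene, the IPC Notch peaks lie between 44.5 and 60.8 kb inside it, and the IPC RBPJ peak stands alone.

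Fgfr1 (ENSMUSG00000031565; chromosome 8, 25513654 to 25575718, plus strand), the receptor broadly found in neural progenitors, had 5 sites, each called in a single list. A single list called 82.9% of all consensus sites. RGC RBPJ was called at the 5' end of the gene, from 25513873 to 25515354, and over its internal start sites, from 25517810 to 25520718, where 6 coding transcripts begin. Deeper in the gene an IPC Notch site, from 25542823 to 25545477, was followed after a gap of only 23 bp by an RGC Notch site, from 25545501 to 25550367. The peaks of Notch in the 2 cell types were thus neighbours and did not overlap. The last site, an IPC RBPJ peak from 25429561 to 25430683, lay 83.0 kb upstream and was closer to the noncoding gene Gm30978, at 0.337 kb. It held no GATC, the sequence on which the assay depends.

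Fgfr3 (ENSMUSG00000054252; chromosome 5, 33721674 to 33737068, plus strand), a receptor marking ventricular zone progenitors, had 3 sites and none on a start site. The largest, from 33699682 to 33706938, lay 14.7 kb upstream and was called for RGC RBPJ, RGC Notch and IPC Notch. Its RGC RBPJ peak of 7183 bp and RGC Notch peak of 5580 bp shared 5506 bp, and the IPC Notch peak of 1707 bp lay inside both. An RGC RBPJ site, from 33694358 to 33698901, lay only 780 bp farther upstream. The third, from 33727212 to 33729458, was an RGC Notch site in an intron. At all 3 receptors no site was called in both IPC lists, and only 2.36% of all consensus sites were. Of the 4 IPC Notch sites at the receptors, 3 were also called for RGC RBPJ, which was called at 67.6% of all consensus sites.

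Spred1 (ENSMUSG00000027351; chromosome 2, 117121374 to 117182279, plus strand), an inhibitor of the Ras cascade, had 2 sites called in both RGC lists, as many as Fgfr2. Both RGC lists called 6 of the 42 sites (14.3%), against 7.77% of all consensus sites. The 3 sites of Spred1 were all called for RGC RBPJ, and none was called in an IPC list. An IPC call was present at only 33.9% of all consensus sites. At the site over its start, from 117119022 to 117123829, the RGC Notch peaks covered 95.7% of the RGC RBPJ peak. In the intronic site from 117136239 to 117143367, an RGC RBPJ peak of 2215 bp lay wholly within an RGC Notch peak of 7129 bp, 31.1% of which it covered. The third site, 10.7 kb upstream, was called for RGC RBPJ only.

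The Sprouty genes, which encode inhibitors of receptor tyrosine kinase signalling, had 1 to 3 sites each, and none lay on a start site or over the gene body. Spry1 (ENSMUSG00000037211; chromosome 3, 37639947 to 37644598) had 1 site, called for RGC Notch, 32.2 kb from its start. Spry2 (ENSMUSG00000022114; chromosome 14, 105891947 to 105896819) had an IPC RBPJ site 7.36 kb from its start, which held no GATC, and a pair of RGC Notch sites 231 and 272 kb away. The farther of these lay over the microRNA gene Mir6390. Spry4 (ENSMUSG00000024427) had 1 site, called for RGC RBPJ, 22.8 kb from its start. Each of the 5 Sprouty sites was therefore called in a single list, as were 82.9% of all consensus sites.

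Etv1 (ENSMUSG00000004151; chromosome 12, 38779380 to 38870484, plus strand), an ETS factor, had 9 sites, of which 7 were called for RGC RBPJ, 2 for RGC Notch and 2 for IPC RBPJ. The site over its start, from 38778628 to 38781952, was called in all lists but IPC Notch. Its RGC RBPJ peak of 3298 bp and RGC Notch peak of 2258 bp shared 2231 bp, and the IPC RBPJ peak of 1229 bp lay inside both. These 1229 bp held 0 TTCCCA words. Inside the gene an RGC RBPJ site from 38786938 to 38789556 and an RGC Notch site from 38854517 to 38856004 lay in introns. Downstream of it, RGC RBPJ sites followed, with start sites 53.6 and 90.9 kb away. Of the remaining sites, 4 lay more than 100 kb from the start, at 209, 280, 383 and 469 kb, and the one 280 kb upstream was in an intron of Dgkb. The site at 209 kb, from 39046826 to 39049318, was called for IPC RBPJ and the other 3 for RGC RBPJ. Within 100 kb, 5 sites remained.

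Etv4 (ENSMUSG00000017724; chromosome 11, 101769742 to 101785371, minus strand) and Etv5 (ENSMUSG00000013089; chromosome 16, 22381309 to 22439719, minus strand), the other ETS factors, had 2 sites each. The Etv4 start site lay in an IPC RBPJ site, from 101783998 to 101786212, and an RGC RBPJ site lay 44.5 kb away. The Etv5 start site lay in a site from 22436048 to 22442299, where an RGC Notch peak of 6247 bp and an IPC RBPJ peak of 5102 bp shared 5097 bp and no RGC RBPJ peak was called. The second Etv5 site, 54.9 kb from the nearest start, was called for RGC RBPJ only. All 3 Etv factors therefore had an IPC RBPJ peak over a start site, which none of the receptors or feedback inhibitors described here had. The trait was not particular to Etv factors. Sites on start sites of Dusp4, another feedback inhibitor, and of Fgf15, Flrt2, Shc3 and Gab1 were also called for IPC RBPJ. Of the feedback inhibitors among the 10 genes, only Spred1 had a site on a start site at all. Over all consensus sites, 11.6% of those called for IPC RBPJ alone, as at Etv4, lay on a start site. The share was 22.2% of sites called in 3 lists, as at Etv1. Among sites of at least 2446 bp, as at Etv1 and Etv5, it was 26.2%. The difference between roles was not tested.

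**Figure D4:**
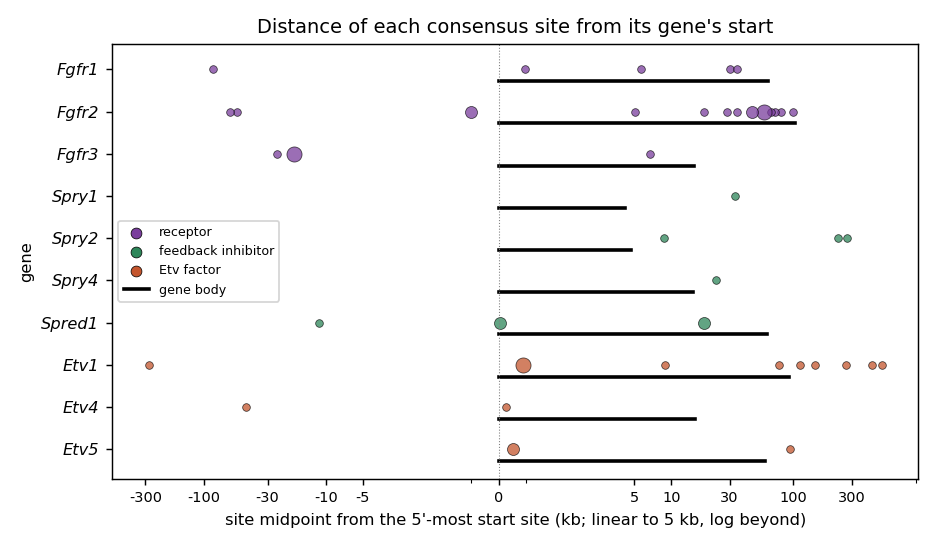
Points give the midpoint of each of the 42 sites in kb from the 5'-most start site of its gene, upstream to the left, on an axis that is linear to 5 kb and logarithmic beyond, and larger points were called in more lists. Black bars are gene bodies. All receptor sites lie within 100 kb on this scale, whereas 6 Etv1 sites and 2 Spry2 sites lie beyond it, 4 and 2 of them also when measured from the nearest start site.

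Over all 10 genes, 9 sites lay on an annotated start site (21.4%, against 16.6% of all consensus sites) and 6 lay more than 100 kb away (14.3%, against 22.7%). The median distance was 5.25 kb for the receptors, 18.7 kb for the feedback inhibitors and 53.6 kb for the Etv factors, against 21.1 kb over all sites. Of the 9 start-site sites, 4 belonged to Fgfr2, and 2 of these contained only the start of a noncoding transcript. No site over the body of a member was assigned to another gene.

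The number of sites also depends on how much sequence lies nearest to a gene. The 10 genes together were nearest to 2.78 Mb and had 15.1 sites per Mb, against 7.63 per Mb over all protein-coding genes. The receptors had 30.7 sites per Mb, the feedback inhibitors 10.3 and the Etv factors 9.86. Fgfr3 had the highest density, 61.4 per Mb, on only 48.9 kb, followed by Fgfr2 with 29.3, Fgfr1 with 26.2 and Etv4 with 25.7. Without the Fgfr2 transcript that begins far upstream, whose start lies among those of Ctbp2, Fgfr2 had 13 sites and 29.3 per Mb. The 9 sites of Etv1 came from 1027 kb of sequence, a density of 8.77 per Mb, close to that of all genes. Spry2, with 7.39 per Mb, was the 1 gene below it.

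**Figure D5:**
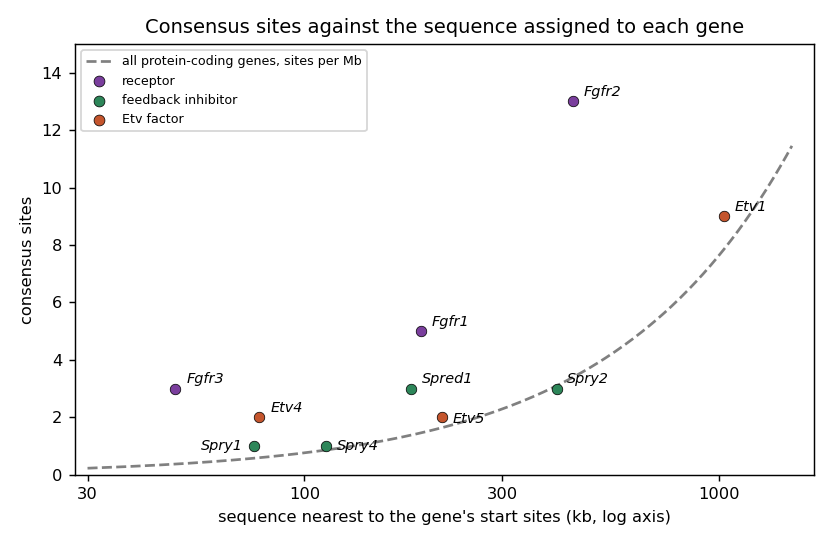
Points give the consensus sites of each gene against the length of sequence nearest to its start sites, on a logarithmic axis in kb, and the dashed line is the density of 7.63 sites per Mb over all protein-coding genes. The 3 receptors and Etv4 lie farthest above the line in relative terms, Etv1 lies near it and Spry2 just below.

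The clusters were read through the lists called over all consensus sites. RGC RBPJ was called at 97.6% of sites in cluster 5 and 99.4% in cluster 8, IPC RBPJ at 96.7% in cluster 3 and RGC Notch at 70.8% in cluster 1, whereas sites of clusters 2, 4, 6 and 7 were more mixed. In clusters 2, 4, 6 and 7, 19.6% of sites were called for both Notch and RBPJ in the same cell type, against 3.68% in the other clusters. Of the 42 sites, 23 (54.8%) fell in these 4 clusters, against 36.3% of all consensus sites. By role these were 12 of 21 receptor sites (57.1%), 2 of 8 feedback inhibitor sites (25%) and 9 of 13 Etv sites (69.2%). Cluster 4 alone held 9 sites (21.4%, against 9.79%), of which 6 were at the receptors.

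The cluster of a site did not always follow the lists that called it, since the clusters were made from signal and not from calls. The site with peaks in 3 lists at Fgfr2 was in cluster 5 and that at Fgfr3 in cluster 4. The RGC Notch site of Spry1 was in cluster 8, a cluster in which 0.866% of all sites were called for RGC Notch. The RGC Notch site of Spry2 nearer to the gene was in cluster 5, where this share was 5.86%.

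The content of GATC, the sequence that Dam methylates, differed between the sites. The 42 sites held 3.17 GATC per kb, against 2.91 over all consensus sites. The 5 sites called for IPC RBPJ alone held 0.971 per kb, and 2 of them, 83.0 kb upstream of Fgfr1 and 7.36 kb from Spry2, held 0. The third cluster 3 site, in Fgfr2, held 1 GATC in 2709 bp. Over all consensus sites, 46.6% of those called for IPC RBPJ alone held no GATC, compared with 1.56% of those called for RGC RBPJ alone, 1.01% for RGC Notch alone and 7.98% for IPC Notch alone. The IPC RBPJ peaks over the starts of Etv1, Etv4 and Etv5 lay in sites with 11, 5 and 22 GATC. The median GC content was 48.7% at receptor sites, 44.0% at feedback inhibitor sites and 39.7% at Etv sites, against 45.3% over all sites. The part of GATC content in the IPC RBPJ calls was not tested.

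TTCCCA words were found in 37 of the 42 sites (88.1%), against 82.9% of all consensus sites, at 1.09 words per kb against 1.17. The density was 1.05 per kb at the receptors, 1.25 at the feedback inhibitors and 1.02 at the Etv factors. The highest densities were at the farther RGC Notch site of Spry2 (2.24 per kb), in the intronic RGC Notch site of Fgfr3 (2.23 per kb) and in the RGC Notch site of Fgfr2 from 130247361 to 130248309 (2.11 per kb). The homeobox word TAATTA occurred in 21 sites (50%, against 45.7%), at 0.312 words per kb against 0.358, and in 9 of 13 Etv sites. The ETS word CCGGAA occurred in 17 sites (40.5%, against 25.3%), at 0.184 words per kb against 0.164, with 9 at receptors, 3 at feedback inhibitors and 5 at Etv factors. Wider sites hold more words, and these sites were wider than the rest, as given above.

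Other genes of the pathway were counted in the same way. Of 76 annotated genes, 46 (60.5%, against 39.8% of all protein-coding genes) had at least 1 site, 144 sites in all. These were 13 of 22 Fgf genes, 5 of 7 other receptors and coreceptors and 9 of 21 signal transducers. They also included 10 of 12 other feedback inhibitors and 9 of 14 further ETS and target factors. Of these sites, RBPJ was called at 70.8% in RGCs and 27.8% in IPCs, against 67.6% and 26.2% of all consensus sites. Notch was called at 16.7% in RGCs and 9.72% in IPCs, against 17.7% and 10.1%. Clusters 2, 4, 6 and 7 held 28.5% of these sites, against 36.3% of all consensus sites. The genes with the most sites were Myc, a growth-promoting transcription factor (13 sites), Flrt2, a membrane protein that binds FGF receptors (12), Etv6, an ETS repressor (9), Spred2 and Ets1 (7 each) and Elk3 (6). No site was found at Fgfr4, the remaining receptor kinase.

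Among these genes, 1 of the 144 sites (0.694%, against 0.678% of all consensus sites) held peaks of all 4 lists. It lay 22.5 kb away from Gab1, an adaptor that couples receptors to Ras, on chromosome 8 from 80856222 to 80858011. There were 8 sites called in 3 lists (5.56%, against 3.20% of all consensus sites). They lay on start sites of Gab1, Shc3, Flrt2 and Fgf15, and at a distance from Fgf12, Ets1 and Etv6, of which Etv6 had 2. Dusp4, a phosphatase of MAP kinases, had 4 sites, all called for IPC RBPJ only and all in cluster 3. Of all consensus sites, 18.3% were called for IPC RBPJ only and 16.3% lay in cluster 3. No GATC was held by 51.3% of all cluster 3 sites. Dusp6, another such phosphatase, had 2, both called for RGC RBPJ, as were 67.6% of all consensus sites.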

How the data were processed

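Targeted DamID of RBPJ and Notch was analysed from files of 14 fusion samples. Reads were trimmed and aligned to mm10 by the authors, who called broad peaks with MACS2 for each fusion and Dam-only pair and kept those that passed an FDR limit in all pairs. The aligner is not given in the sources used here. The deposited values are positions in bp, in 4 pooled lists with a constant score, and consensus sites with a k-means cluster made from signal. There were 0 unmapped columns of samples, and 16 other samples were not used here.

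From these, each site was given to the nearest start site of any transcript of a protein-coding gene (GENCODE vM21, GRCm38), measured from the site's edge, and 269 tied sites counted for each gene. The 2 mitochondrial sites were left out. The lists named in the consensus file matched overlaps from 1 bp at 20809 of 20809 sites. Words were counted on both strands, with overlaps. Sequence nearest to a gene was bounded by midpoints between start sites. Assignment and word counts were tested on simulated data and matched a direct search at 500 of 500 places each. The software was Python 3.11.15 (scipy 1.17.1, pandas 2.3.3, numpy 2.4.6, matplotlib 3.10.9).

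All 10 genes were named, with the pathway genes having most sites (up to 8; a tie at 5 sites left 6) or a site in 3 or 4 lists, and Dusp4, Dusp6 and Fgfr4, chosen after their values were seen. The genes and lists were chosen with earlier results of these data known. Alternatives changed the distance, start sites, gene types, distance limit, ties, width, overlap, word and sequence window.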

Additional observations from a re-analysis of the deposited data

How the results depend on the processing

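No paired analysis was possible because the lists pool their replicates, and leaving out a replicate was not possible for the same reason. The count of sites depended most on which start sites were allowed. When start sites of every annotated gene were allowed, the 10 genes had 25 sites and not 42, the feedback inhibitors 4 and the Etv factors 6, because noncoding genes and pseudogenes lay nearer. With 1 start site per gene, the receptors had 12 sites in place of 21; the 1 Fgfr2 transcript that begins far upstream sets the start used there, and Fgfr2 had 4 sites, 0 of them among its 13. Without the Fgfr2 sites, an alternative chosen after seeing the data, the receptors had 8. Leaving out that far transcript, also chosen after seeing the data, left 42 sites and 15.1 per Mb. In the central 500 bp the sites held 0.762 TTCCCA words per kb (1.18 over all consensus sites), and with the words TTCCCAC and TTCCCAT alone 0.431 (0.507 over all). Within 100 kb of start sites the 10 genes had 22.8 sites per Mb, against 9.56 over all genes. The shares called in each list and the share in clusters 2, 4, 6 and 7 stayed within their counting intervals under every alternative run, and the remaining counts stayed within 1.5 times. Single genes moved by more in 12 cases, among them Etv1 (5 sites within 100 kb, 3 with all annotated genes) and Spry2 (1 site in both). Depth and replicate spread, which the lists do not hold, limit all of these values.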
